A study of Mus musculus with 1677 samples.

Results

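The 39 genes described here mark macrophages and, among them, the lipid-associated macrophages of adipose tissue. They were taken by name from the 24533 gene rows of the count table used here, and every one of them was found. They comprise 11 identity and surface receptor genes, 3 leukocyte integrin genes, 10 lipid-associated macrophage genes, 5 genes of chemokines and a chemokine receptor, 4 genes of Fc receptors and their signalling chain, 3 complement C1q genes and 3 cytokine genes. The study measured polyA RNA in 22 mouse tissues over the day under 2 feeding schedules. All groups were wild-type C57BL/6J mice bought at 10 weeks of age, kept on chow for 2 weeks under 12 h of light a day, and then fed a Western diet with 45% fat and 17% sucrose for 7 weeks, so the controls carried the same diet as the treated mice. Under ad libitum feeding (ALF) food was present at all times, and under time-restricted feeding (TRF) it was present for 9 h a day, from ZT13 to ZT22, where ZT0 is the time of lights on. Tissues were collected at 12 clock times, every 2 h, with up to 2 replicates each. This gave 24 ALF and 24 TRF libraries in each of the 5 tissues set side by side here: epididymal white fat (eWAT), inguinal white fat (iWAT), muscle, heart and adrenal gland. The labels name no transgene or deletion. The labels do not say whether replicates came from separate mice, or whether tissues came from the same mouse, so p-values measure the spread between these libraries, which may in part be technical.

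Macrophages take up particles, dying cells and lipid, and sense antibodies and complement through receptors on their surface. In the fat of obese mice, monocytes drawn in by chemokines such as Ccl2 become macrophages that gather around dying adipocytes, and those with lipid-filled lysosomes switch on a set of genes that includes Trem2, Gpnmb, Lgals3, Cd9 and Spp1. Resident macrophages that carry Cd163 and Mrc1 are present in lean fat as well.

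Levels are given in CPM, read counts scaled to a common library total. The 5 tissues held their defining transcripts. Adipoq, the adipocyte hormone adiponectin, had a median of 4469 CPM in eWAT and 3130 CPM in iWAT, Acta1 (skeletal actin) 35389 CPM in muscle, Myh6 (cardiac myosin) 30332 CPM in heart and Cyp11b1 (a steroid-making enzyme) 6717 CPM in adrenal gland. Adrenal libraries also held Adipoq at 118 to 865 CPM, and iWAT libraries held Acta1 at 4.93 to 4245 CPM. Totals in the 5 tissues ran from 4.855 M to 500.6 M counts per library (M, mega-counts), with a median of 14.61 M. Before any result, 2 sets of libraries need naming. In eWAT the TRF library at ZT10, replicate 1, stood apart, with a summed level of the 39 genes of 12596 CPM against 2130 to 3560 CPM in the other 23 TRF libraries. In iWAT, 5 ALF libraries resembled the eWAT libraries more than their own tissue in overall expression, and no eWAT, muscle, heart or adrenal library was nearer to another tissue. Counts of the 39 genes and of the other gene lists in these depots are given with both sets of libraries in, and then without them.

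In eWAT the macrophage genes were lower under TRF nearly without exception. All 39 genes were tested, 37 fell, 1 rose (Cd163) and 1 (Cd14) did not pass the test, where 29% of the 14132 genes tested in eWAT fell and 30.2% rose. The median log2 fold change, TRF over ALF, was -1.53 over the 39 genes and 0.01 over all genes tested. Of the 37 that fell, 13 had a log2 fold change under -2, 16 lay between -1 and -2 and 8 between 0 and -1, with adjusted p from 7.9e-07 to 0.020. These are Benjamini-Hochberg adjusted p-values from edgeR's quasi-likelihood test with clock time in the model, and a fold change is given ± its standard error, with 24 libraries per group. In bulk tissue, fewer macrophages and less of these RNAs per macrophage cannot be told apart.

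**Figure D1:**
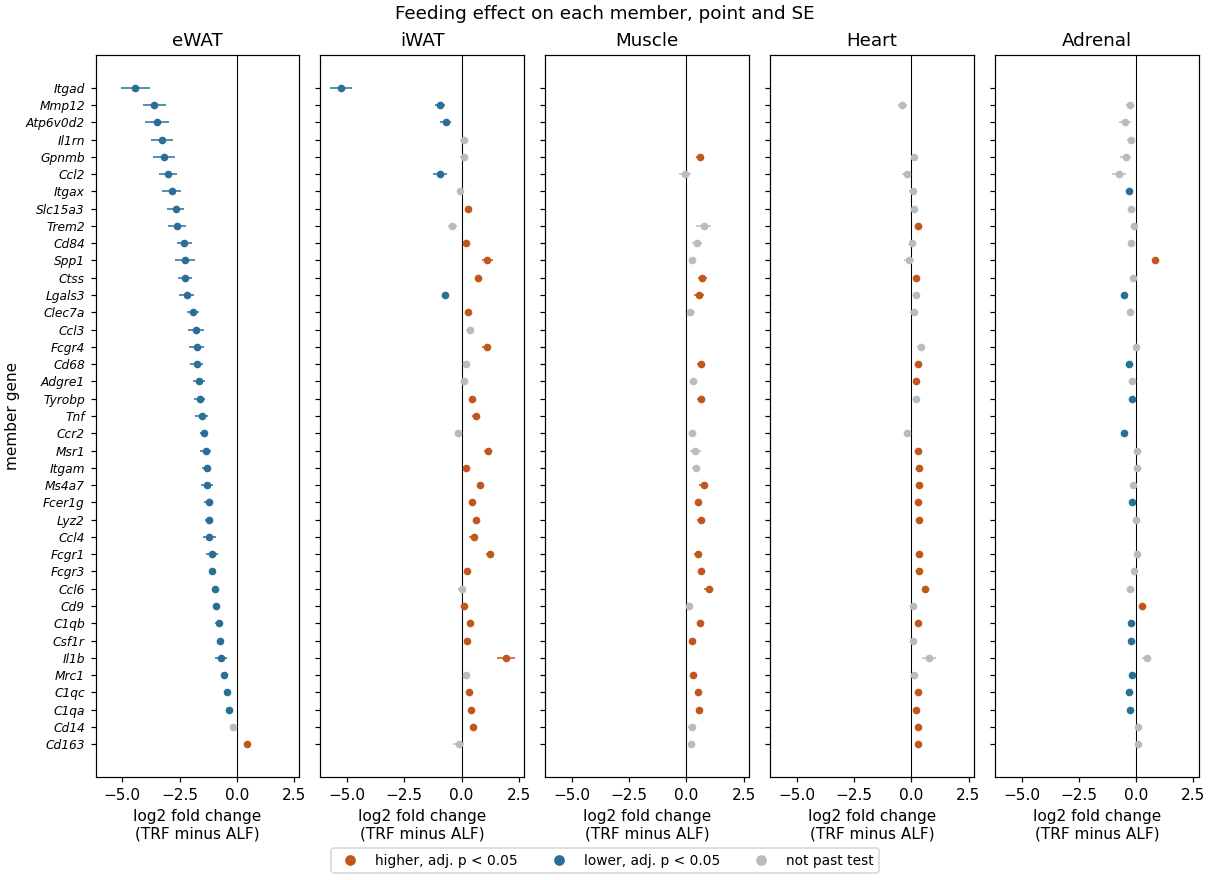
Log2 fold change (TRF over ALF) of each of the 39 genes on the horizontal axis in eWAT, iWAT, muscle, heart and adrenal gland, with standard errors as bars, genes ordered by their eWAT value and no point where a gene was not tested. Orange points were higher and blue points lower at an adjusted p of 0.05, and grey points did not pass. In eWAT the points lie left of 0 for every gene but Cd163. In iWAT, muscle and heart most lie right of 0, and in adrenal gland 27 of 35 lie left of 0, with a median of -0.20.

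Levels below are CPM in the lowest, median and highest library of a group. Summed over the 39 genes, eWAT held 2249, 8014 and 20359 CPM in ALF and 2130, 2834 and 12596 CPM in TRF. There were 4 ALF libraries that exceeded the TRF library that stood apart, and 20 of 24 ALF libraries exceeded the highest of the other TRF libraries. The 4 ALF libraries with the lowest sums were the second replicates at ZT14, ZT8, ZT12 and ZT10, with 2249, 2817, 2900 and 3292 CPM, inside the range of the TRF libraries. The spread of these genes between libraries was wider under ALF. The standard deviation of log2(CPM + 1) was larger in ALF for 38 of the 39 genes. Its median was 0.959 in ALF and 0.582 in TRF. The share of all genes with a larger spread in ALF was not computed. The added 1 also narrows the spread of genes near or below 1 CPM, so a lower level alone can narrow it.

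**Figure D2:**
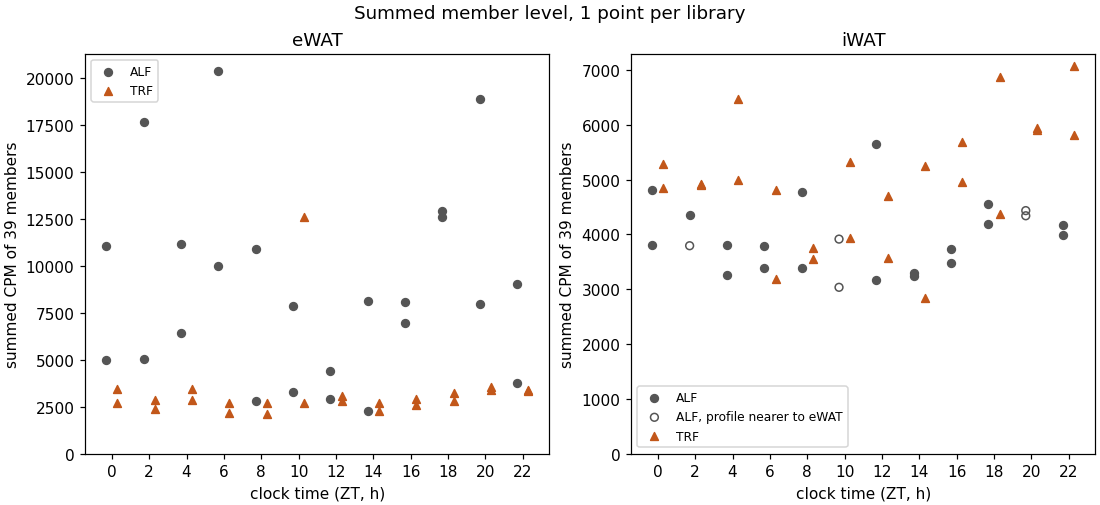
Summed level of the 39 genes (CPM, vertical axis) in each eWAT and iWAT library by clock time (ZT, hours), with circles for ALF and triangles for TRF; open circles mark the 5 ALF iWAT libraries nearer to eWAT. In eWAT the TRF libraries lie between 2130 and 3560 CPM except the ZT10 library at 12596 CPM, and ALF libraries reach 20359 CPM.

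The lipid-associated macrophage genes showed some of the largest falls, and all 10 passed the test, with a median log2 fold change of -2.44. Trem2, a lipid-sensing receptor of these cells, lay at 8.30, 82.6 and 301 CPM in ALF and at 7.22, 12.0 and 170 CPM in TRF, a log2 fold change of -2.61 ± 0.41 (adjusted p = 3.9e-06). All but 1 of the 24 TRF libraries were under the ALF median, and the TRF value of 170 CPM was that of the library at ZT10 that stood apart, the next highest being 20.5 CPM. Tyrobp, the adaptor that carries the Trem2 signal into the cell, lay at 44.1, 188 and 488 CPM in ALF and 40.99, 52.3 and 285 CPM in TRF, a log2 fold change of -1.62 ± 0.24. Gpnmb, a membrane glycoprotein of cells under lysosomal load, lay at 41.6, 556 and 2642 CPM in ALF and at 34.8, 57.2 and 1143 CPM in TRF (-3.17 ± 0.48, adjusted p = 3.3e-06). The groups overlapped at the low end, yet 23 of 24 TRF libraries were under the ALF median. Mmp12, the macrophage elastase, went from 28.9, 369 and 1799 CPM to 11.1, 29.9 and 673 CPM (-3.60 ± 0.50, adjusted p = 1.4e-06), and 11 TRF libraries were below the lowest ALF library.

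The other genes of this set fell by amounts that differed between them. Atp6v0d2, a subunit of the proton pump that acidifies lysosomes, lay at 4.86, 114 and 407 CPM in ALF and 2.88, 7.03 and 214 CPM in TRF (-3.47 ± 0.52). Slc15a3, a lysosomal transporter of histidine and small peptides, lay at 4.51, 37.1 and 128 CPM in ALF and 2.22, 5.49 and 69.0 CPM in TRF (-2.67 ± 0.37). Ctss, the lysosomal protease cathepsin S, lay at 115, 683 and 1674 CPM in ALF and 85.6, 114 and 917 CPM in TRF (-2.25 ± 0.29). For Ctss 12 of the 24 TRF libraries were below every ALF library, and 6 ALF libraries were above every TRF library. Lgals3, the lectin galectin-3, lay at 126, 712 and 1947 CPM in ALF and 79.6, 146 and 1254 CPM in TRF (-2.18 ± 0.33). Spp1, the secreted protein osteopontin, was scarce in this fat, at 1.19, 17.4 and 73.4 CPM in ALF and 0.922, 2.87 and 48.4 CPM in TRF (-2.27 ± 0.44). Cd9, a tetraspanin that adipose cells other than macrophages also make, fell least of the 10, by 0.90 ± 0.15 on the log2 scale, from a median of 120 CPM to 65.6 CPM.

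**Figure D3:**
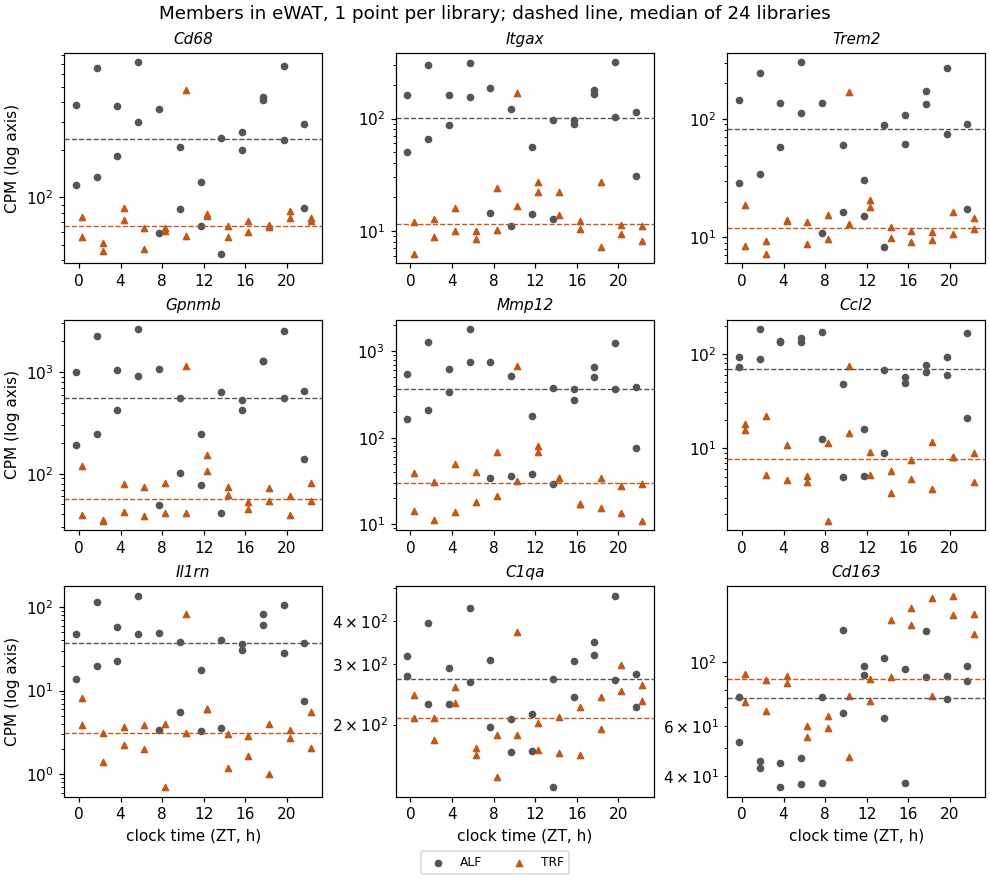
Level in CPM (vertical log axis) of 9 of the genes in each eWAT library at each clock time (ZT, hours), ALF and TRF in separate colours, with the median of each group's 24 libraries as a dashed line. For 8 of the 9 the TRF median is below the ALF median and 1 TRF point at ZT10 lies among the ALF libraries; Cd163 has the higher median in TRF.

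Identity and surface receptor genes fell in 9 cases of 11, with a median of -1.29. Adgre1, the adhesion receptor known as F4/80, lay at 43.2, 189 and 581 CPM in ALF and 37.7, 54.9 and 341 CPM in TRF (-1.66 ± 0.26, adjusted p = 4.5e-06). Cd68, a lysosomal glycoprotein, lay at 43.9, 235 and 714 CPM in ALF and 45.5, 66.3 and 481 CPM in TRF (-1.75 ± 0.29). No TRF library of Cd68 was below the lowest ALF library, and 23 of 24 were below the ALF median. Cd84, a receptor of the SLAM family, fell most in this set, from 18.2, 115 and 290 CPM to 12.0, 18.5 and 178 CPM (-2.28 ± 0.31). Clec7a, the beta-glucan receptor dectin-1, followed at -1.90 ± 0.27, then the scavenger receptor Msr1 at -1.36 ± 0.25 and the tetraspan gene Ms4a7 at -1.29 ± 0.26. Csf1r, the receptor through which colony-stimulating factor keeps macrophages alive, fell less, from 143, 302 and 672 CPM to 137, 190 and 453 CPM (-0.73 ± 0.14, adjusted p = 3.7e-05). Lyz2, the lysozyme of myeloid cells, fell by 1.22 ± 0.18 on the log2 scale, from a median of 1767 CPM to 669 CPM, but how reads shared with its near-identical neighbour Lyz1 were counted is not given in the sources used here.

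The receptors typical of resident macrophages, and Cd14, showed smaller falls or none. Mrc1, the mannose receptor, lay at 105, 213 and 351 CPM in ALF and 79.7, 132 and 289 CPM in TRF, a fall of only 0.54 ± 0.11 on the log2 scale (adjusted p = 9.9e-05). Cd163, the receptor that clears haemoglobin bound to haptoglobin, was the single gene that rose, from 36.6, 75.2 and 130 CPM to 46.8, 87.4 and 171 CPM (0.45 ± 0.13, adjusted p = 0.0032). Its groups overlapped widely: TRF was higher at 10 of 12 clock times, and 8 TRF libraries were below the ALF median. Cd14, the co-receptor for bacterial lipopolysaccharide, lay at 15.4, 30.9 and 70.2 CPM in ALF and 17.3, 28.4 and 69.2 CPM in TRF and did not pass the test (-0.14 ± 0.13, adjusted p = 0.36). The calls of Cd163 and Mrc1 were lost when the first replicates were left out. In that fit 31 of the 39 genes fell (9.33% of all genes): Mrc1, C1qa, C1qc and Il1b did not pass, and Tnf and Ccl4 had too few counts to be tested.

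The 3 integrin genes lie side by side on chromosome 7 of the GRCm38 annotation, Itgam at chr7:128062640-128118491, Itgax at chr7:128129547-128150657 and Itgad at chr7:128154376-128223816, all on the forward strand, and their falls in eWAT were larger in that order. Itgam, the CD11b chain of most myeloid cells, lay at 47.0, 137 and 325 CPM in ALF and 31.5, 52.8 and 219 CPM in TRF (-1.31 ± 0.19). Itgax, the CD11c chain found on macrophages of obese fat and on dendritic cells, lay at 10.98, 101 and 316 CPM in ALF and 6.21, 11.5 and 170 CPM in TRF (-2.84 ± 0.40, adjusted p = 1.6e-06). Itgad, the CD11d chain, had the largest fall of the 39 genes, from 0.838, 18.2 and 72.2 CPM to 0, 0.629 and 72.8 CPM (-4.42 ± 0.64, adjusted p = 1.9e-06). Of 24 TRF libraries 13 were below the lowest ALF library, and the value of 72.8 CPM again came from the ZT10 library, with the next highest TRF library at 1.62 CPM. Without that library the log2 fold change of Itgad was -4.77.

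Every gene of the chemokine set fell, with a median of -1.42. Ccl2, the main attractant of blood monocytes, lay at 5.002, 69.9 and 184 CPM in ALF and 1.73, 7.82 and 74.0 CPM in TRF (-2.99 ± 0.39, adjusted p = 1.0e-06). It had the cleanest separation at the upper end, with 11 ALF libraries above every TRF library. Ccr2, the receptor by which monocytes read Ccl2, lay at 36.5, 134 and 186 CPM in ALF and 21.04, 42.1 and 166 CPM in TRF (-1.42 ± 0.17), and its adjusted p of 7.9e-07 was the smallest of the 39. Ccl6, a chemokine made by resting myeloid cells too, went from a median of 395 CPM to 187 CPM (-0.93 ± 0.15). Ccl3 and Ccl4, attractants made by activated macrophages, were close to the lower limit of these libraries, with ALF medians of 1.24 and 1.00 CPM, and fell by 1.76 ± 0.35 and 1.19 ± 0.28 on the log2 scale. Ccl3 was the only one of the 39 to be lower under TRF at all 12 clock times.

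Fc receptor genes fell in 4 cases of 4, with a median of -1.16. Fcgr4, a receptor for IgG on inflammatory myeloid cells, lay at 1.05, 6.88 and 25.0 CPM in ALF and 0.554, 2.29 and 16.2 CPM in TRF (-1.76 ± 0.32). The signalling chain Fcer1g, which these receptors share, fell from a median of 94.5 CPM to 37.7 CPM (-1.23 ± 0.20), Fcgr1 by 1.08 ± 0.25 and Fcgr3 by 1.06 ± 0.17 on the log2 scale. The 3 C1q genes, which encode the chains of the first complement component and which tissue macrophages make in bulk, had the median closest to 0 of all the groups, -0.41. C1qb lay at 155, 457 and 923 CPM in ALF and 178, 230 and 683 CPM in TRF (-0.79 ± 0.16, adjusted p = 7.4e-05), C1qc went from a median of 239 CPM to 177 CPM (-0.41 ± 0.12) and C1qa from 271 CPM to 209 CPM (-0.33 ± 0.10, adjusted p = 0.0068). No TRF library was below the lowest ALF library for any of the 3, and the calls of C1qa and C1qc were lost without the first replicates.

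Among the cytokines, Il1rn, the antagonist that blocks the interleukin-1 receptor, lay at 3.33, 36.9 and 138 CPM in ALF and 0.697, 3.08 and 83.1 CPM in TRF (-3.28 ± 0.48, adjusted p = 1.9e-06), and 13 TRF libraries were below every ALF library. Tnf, a main inflammatory cytokine, was near 1 CPM, at 0.126, 1.26 and 3.80 CPM in ALF and 0.103, 0.446 and 2.01 CPM in TRF (-1.53 ± 0.27). Il1b, interleukin-1 beta itself, lay at 0.310, 1.15 and 3.13 CPM in ALF and 0.0839, 0.481 and 2.72 CPM in TRF (-0.70 ± 0.26, adjusted p = 0.020). It was the least certain of the falls, with 9 of 12 clock times lower, and its call was lost without the first replicates or with ZT2 or ZT8 left out.

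Per length of transcript, the ALF medians in eWAT were highest for Lyz2 (1342 CPM per kb), Lgals3 (829 CPM per kb), Ccl6 (508 CPM per kb) and Ctss (504 CPM per kb). Gpnmb, at 303 CPM per kb in ALF, was at 31.2 CPM per kb in TRF, and Tnf was lowest at 0.81 CPM per kb in ALF.

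Promoter windows from RefSeq (build GRCm38.p6), the 250 bases before each transcript start, were listed for 28 of the 39 genes. They were searched for GAGGAAG and its reverse complement CTTCCTC, a core that the myeloid factor PU.1 (the product of Spi1) binds among ETS factors. Of the 28 genes 10 held it (35.7%), as did 12% of the 27025 genes with a window of that length. The 10 were C1qc, Fcgr1, Fcgr3, Fcgr4, Itgam, Mmp12, Mrc1, Spp1, Tnf and Trem2. The windows of 5 of them are printed, 5′ to 3′ on the strand of the gene, because they cover a large fall (Mmp12), the lipid-associated receptor (Trem2), a scarce secreted protein (Spp1), an integrin (Itgam) and the resident receptor that fell little (Mrc1); capitals mark the motif. They are Trem2 at chr17:48346151-48346400, Mmp12 at chr9:7344147-7344396, Spp1 at chr5:104434861-104435110, Itgam at chr7:128062390-128062639 and Mrc1 at chr2:14229164-14229413, all on the forward strand.
Trem2: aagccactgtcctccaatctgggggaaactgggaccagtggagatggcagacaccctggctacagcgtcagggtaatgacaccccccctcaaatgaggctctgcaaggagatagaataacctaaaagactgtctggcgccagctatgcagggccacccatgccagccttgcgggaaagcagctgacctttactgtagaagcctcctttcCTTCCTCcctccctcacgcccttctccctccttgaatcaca
Mmp12: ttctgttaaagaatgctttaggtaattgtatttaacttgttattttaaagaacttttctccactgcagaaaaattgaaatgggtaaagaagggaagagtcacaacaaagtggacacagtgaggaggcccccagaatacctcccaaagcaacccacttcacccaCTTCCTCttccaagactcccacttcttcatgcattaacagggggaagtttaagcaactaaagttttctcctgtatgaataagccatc
Spp1: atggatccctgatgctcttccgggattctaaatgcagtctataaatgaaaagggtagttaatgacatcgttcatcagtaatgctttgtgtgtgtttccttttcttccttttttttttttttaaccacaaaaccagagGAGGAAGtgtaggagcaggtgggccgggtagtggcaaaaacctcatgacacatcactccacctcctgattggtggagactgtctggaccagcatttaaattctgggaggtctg
Itgam: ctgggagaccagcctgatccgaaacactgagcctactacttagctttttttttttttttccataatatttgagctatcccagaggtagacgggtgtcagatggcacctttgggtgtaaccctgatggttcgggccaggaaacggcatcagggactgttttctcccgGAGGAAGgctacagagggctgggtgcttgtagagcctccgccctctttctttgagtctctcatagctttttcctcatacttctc
Mrc1: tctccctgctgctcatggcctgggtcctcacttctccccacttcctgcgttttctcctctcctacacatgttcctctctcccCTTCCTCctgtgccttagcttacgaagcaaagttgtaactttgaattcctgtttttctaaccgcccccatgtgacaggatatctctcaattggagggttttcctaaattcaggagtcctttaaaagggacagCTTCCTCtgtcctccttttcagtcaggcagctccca
The motif lies 35 bases before the start in Trem2, 81 in Mmp12, 107 in Spp1, 78 in Itgam and 30 and 162 in Mrc1. Another RefSeq start of Mmp12 and another of Spp1 have windows without these letters. Among the 10 genes with the motif the log2 fold change in eWAT ran from -3.60 (Mmp12) to -0.41 (C1qc), and Mrc1, with 2 matches, was at -0.54.

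The TRF library at ZT10, replicate 1, enters every eWAT value above. It was the highest TRF library for 36 of the 39 genes, and at ZT10 the TRF mean exceeded the ALF mean for 36 genes, while the other replicate at that time had a summed level of 2703 CPM. In it Trem2 was at 170 CPM against 12.9 CPM in replicate 2, Gpnmb at 1143 against 41.1 CPM and Mmp12 at 673 against 31.8 CPM. Markers of other cells moved with it: summed adipocyte genes were at 20973 CPM against 44652 to 65863 CPM in the other TRF libraries, mesothelial genes at 24.9 against 102 to 434 CPM and fibroblast and progenitor genes at 7110 against 3353 to 5664 CPM. T and B lymphocyte genes, at 24.4 CPM, were inside the range of 8.96 to 41.4 CPM. The part of tissue composition in its values was not tested. Without it 37 genes fell and 1 rose, as before (30.4% and 32.3% of all genes), and the median moved to -1.72, with Mmp12 at -3.82 and Trem2 at -2.79.

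Both parts of the day showed the falls. In the window from ZT0 to ZT12, when the TRF mice had no food, 34 genes were lower and 0 higher (20.8% and 19.4% of all genes tested) with a median of -1.49. From ZT14 to ZT22, 34 were lower (25% of all genes) with a median of -1.72, and 1 was higher (23.7%). The difference between the windows was past the threshold in edgeR's test for none of the 39 genes, and 0 had an unadjusted p under 0.05, where 2.21% of all genes differed. Without the ZT10 library 37 were lower and 1 higher in the first window (24.9% and 25.2% of all genes), and 36 and 1 in the second (25.6% and 24.9%).

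With all libraries in, few of the genes followed a 24 h cosine in eWAT, and the counts depended on the libraries used. Under ALF 1 did (Cd163), against 9.37% of all genes, and under TRF 8 did, against 30.6%: Cd163, Clec7a, Itgax, Itgad, Gpnmb, Mmp12, Atp6v0d2 and Slc15a3. The difference in rhythm passed for 3 (Itgax, Itgad and Mmp12), against 11.3% of all genes. The 7 besides Cd163 had fitted peaks between ZT8.23 and ZT10.9, next to the ZT10 library, and without that library 3 genes were rhythmic under TRF (Cd163, Mrc1 and Il1b; 32.5% of all genes), 3 under ALF (Cd163, Ccl2 and Tnf; 13%), and 0 differed (9.35%). Cd163 was rhythmic in both groups with and without the ZT10 library, but not under TRF without the first replicates. Without the first replicates 21 genes were rhythmic under ALF (20.9% of all genes), 0 under TRF (9.73%), and 0 differed (4.55%); without the second replicates these counts were 1 (0.136%), 4 (9.23%) and 0 (0.15%). With all libraries the fitted peak of Cd163 was at ZT16.0 in ALF, with an amplitude of 0.57 log2 units (adjusted p = 0.0079 in edgeR's test). In TRF it was at ZT18.9, with an amplitude of 0.64 (adjusted p = 1.3e-04). The mean of both replicates of Cd163 was 41.9 CPM at ZT6 and 82.2 CPM at ZT20 in ALF, and 57.4 CPM and 159 CPM at these times in TRF. The difference in Cd163's rhythm between the groups did not pass (adjusted p = 0.11).

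Genes of the same pathways outside the 39 fell in eWAT too, in most lists. These lists were written with earlier results of these data known, so they are a description and not separate support. Over all genes tested in eWAT 29% fell and 30.2% rose, the shares to set beside the list counts in this tissue. Of 20 genes of phagocytic adaptor and integrin signalling, all 20 fell, with a median of -1.24; they include Cybb (-1.52), the catalytic chain of the oxidase that makes superoxide, and the kinases Fgr (-1.44), Syk (-1.28) and Lyn (-0.80). Of 11 other monocyte chemokines and receptors 9 fell and 0 rose, with a median of -1.50, led by Ccl7 (-2.79 ± 0.36), another ligand of Ccr2. Among 10 macrophage transcription factors 8 fell and 1 rose: Spi1, which encodes PU.1, went from a median of 46.9 CPM to 17.5 CPM (-1.36 ± 0.22), and Irf8 fell by 1.47 ± 0.21, while Maf rose by 0.15. Inflammasome and inflammatory cytokine genes fell in 9 of 11 cases, with 1 that rose; Nlrp3, the sensor of the inflammasome, was at -1.07, its protease Casp1 at -1.01 and its adaptor Pycard at -1.13.

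Lists that other cells also express were more mixed. Lysosomal genes fell in 17 of 22 cases, with 1 that rose and a median of -0.62; the protease gene Ctsk was at -1.88 and Lipa, the acid lipase that splits cholesterol esters and triglycerides, at -1.57. Lipid-handling genes split, with 8 that fell and 3 that rose of 14: Soat1 (-1.84 ± 0.28) and Nceh1 (-2.01 ± 0.32), which form and split cholesterol esters, fell, whereas Apoe, a lipid carrier that adipocytes make too, rose from a median of 1852 CPM to 4129 CPM (1.00 ± 0.13). Alternative activation genes also split, with 6 that fell and 2 that rose of 12. Arg1 (-1.23) and Chil3 (-1.19) fell. Timd4 (0.86 ± 0.18) and Lyve1 (0.57), both carried by resident macrophages, were the only 2 of the 12 that rose. Cd163 rose as well, whereas the resident receptor Mrc1 fell (-0.54). Whether genes of resident macrophages rose as a set was not tested. The calls of Cd163 and Mrc1 were lost without the first replicates. Colony-stimulating factor ligand and adhesion genes had 4 falls and 1 rise among 9, with the receptor chain Csf2ra at -1.10 and Il34, another ligand of Csf1r, at 0.50. Without the ZT10 library 19 lysosomal and 10 chemokine genes fell, 4 lipid-handling genes rose and 5 alternative activation genes fell, and the counts of these 8 lists were otherwise as given.

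Markers of other cells moved with these genes in eWAT, and their part in the falls was not tested. Adipocyte genes rose in 12 of 14 cases and fell in 1, with a median of 0.59; their summed level was 18817, 35239 and 63474 CPM in ALF and 20973, 54649 and 65863 CPM in TRF. Mesothelial genes rose in 5 of 5 cases (median 1.25), erythroid genes in 6 of 6 (0.85), mast-cell genes in 5 of 6 (0.55), endothelial genes in 6 of 8 (0.21) and epithelial genes of the epididymis and mammary gland in 3 of 6 (1.38). Dendritic-cell genes, some of which macrophages share, fell in 5 of 7 cases and rose in 2, with a median of -0.88. T and B lymphocyte genes fell in 2 of 11 cases and rose in 0 with the ZT10 library in, and fell in 3 and rose in 2 without it; their summed ALF level was only 11.7, 25.7 and 38.1 CPM. Neutrophil genes rose in 2 of 4 cases and fell in 1, and fibroblast and progenitor genes rose in 3 and fell in 5 of 10. Among markers of macrophages of other organs, those of alveolar macrophages fell in 3 of 5 cases and rose in 1, those of red pulp macrophages rose in 2 and fell in 2 of 5, those of Kupffer cells rose in 2 and fell in 1 of 5, and those of microglia rose in 2 and fell in 3 of 7; Clec4f, which defines Kupffer cells, had no count in any eWAT library. Brown adipocyte genes rose in 2 and fell in 2 of 5, and muscle fibre genes rose in 2 and fell in 1 of 6. Without the ZT10 library 7 endothelial genes rose, 4 dendritic-cell genes fell and 5 epithelial genes could be tested, and the other counts of this paragraph, besides those of lymphocytes, did not change.

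In iWAT, the other white fat depot, the same genes mostly went the other way or did not pass. All 39 were tested, 23 rose and 5 fell, where 35.1% of the 14609 genes tested rose and 31.2% fell. The median log2 fold change was 0.26, against 0.02 over all genes. Without the 5 ALF libraries nearer to eWAT, 18 of the same 23 genes rose and 4 fell (27.8% and 27.2% of all genes), with a median of 0.23. Clec7a, Cd84, Itgam, Cd9 and Slc15a3 were the rises that were lost, and Atp6v0d2 the fall. Without the first replicates 8 rose and 3 fell (4.97% and 5.73% of all genes), and without the second 19 rose and 5 fell (30.2% and 29.5%).

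The largest rises in iWAT were those of Il1b, Fcgr1, Msr1, Spp1 and Fcgr4. Il1b lay at 0.418, 1.16 and 27.3 CPM in ALF and 0.899, 6.21 and 31.5 CPM in TRF (1.94 ± 0.38, adjusted p = 4.3e-05). Fcgr1, the high-affinity receptor for IgG, lay at 6.33, 10.3 and 36.1 CPM in ALF and 10.2, 27.7 and 62.2 CPM in TRF (1.24 ± 0.17). Msr1 lay at 8.77, 14.1 and 53.7 CPM in ALF and 15.4, 33.2 and 66.9 CPM in TRF (1.15 ± 0.18). In each of these the groups overlapped, with TRF libraries shifted upward. Spp1 was higher at 12 of 12 clock times and rose from a median of 4.22 CPM to 8.19 CPM (1.13 ± 0.24), and Fcgr4 by 1.10 ± 0.19. Without the 5 libraries nearer to eWAT the log2 fold changes were 1.63 ± 0.43 for Il1b, 1.16 ± 0.20 for Fcgr1, 0.99 ± 0.20 for Msr1, 0.98 ± 0.28 for Spp1 and 1.08 ± 0.22 for Fcgr4. All 4 Fc receptor genes and all 3 C1q genes rose with and without them, the latter by 0.34 to 0.40 with them and 0.27 to 0.34 without. Adgre1, Cd68, Itgax, Gpnmb, Ccr2 and Cd163 did not pass the test in iWAT, with log2 fold changes of 0.09, 0.18, -0.06, 0.10, -0.16 and -0.12, and neither did Trem2, at 4.62, 13.5 and 32.6 CPM in ALF and 3.13, 8.30 and 28.0 CPM in TRF (-0.41, adjusted p = 0.064).

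Among the genes that fell in iWAT, Itgad stood out. It lay at 0.758, 57.4 and 166 CPM in ALF and 0.196, 1.12 and 7.17 CPM in TRF (-5.28 ± 0.49, adjusted p = 4.1e-10). The 5 ALF libraries nearer to eWAT held 45.4, 123 and 166 CPM and the other 19 ALF libraries 0.758, 52.5 and 126 CPM, and without the 5 the log2 fold change was -4.91 ± 0.55. The rest of the falls were smaller. Mmp12 went from 13.02, 44.4 and 122 CPM to 5.36, 18.9 and 77.6 CPM (-0.95 ± 0.22), Lgals3 from 133, 241 and 330 CPM to 85.7, 126 and 274 CPM (-0.74 ± 0.12) and Ccl2 from 4.03, 25.8 and 77.4 CPM to 3.24, 10.9 and 99.6 CPM (-0.93 ± 0.30). Without the 5 libraries Mmp12 was at -0.86 ± 0.24 and Lgals3 at -0.68 ± 0.13, and Ccl2 was near the threshold (-0.75 ± 0.33, adjusted p = 0.0498). Atp6v0d2 fell by 0.70 ± 0.23 on the log2 scale with all libraries.

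Markers of lymphocytes and of muscle fibres moved in iWAT alongside these genes, and their part in the rises was not tested. T and B lymphocyte genes rose in 14 of 14 cases, with and without the 5 libraries. Their summed level was 16.6, 118 and 221 CPM in the 5 ALF libraries nearer to eWAT, 313, 562 and 3184 CPM in the other 19 ALF libraries and 645, 1358 and 2404 CPM in TRF. Muscle fibre genes rose in 10 of 12 cases, with sums of 29.3, 147 and 270 CPM, 33.5, 552 and 9081 CPM, and 20.5, 3332 and 21414 CPM in the same order of groups. Dendritic-cell genes rose in 6 of 7 cases and neutrophil genes in 6 of 7, adipocyte genes rose in 3 and fell in 9 of 14, and endothelial genes fell in 7 of 8. All 20 genes of phagocytic signalling rose in iWAT, with a median of 0.77, and 0.57 without the 5 libraries, the opposite of their direction in eWAT. Of 13 inflammasome and cytokine genes 11 rose and 1 fell, of 10 macrophage transcription factors 8 rose and 1 fell, of 11 chemokine genes 7 rose and 0 fell, of 14 lipid-handling genes 6 rose and 8 fell, and of 22 lysosomal genes 5 rose and 9 fell. Alternative activation genes rose in 8 and fell in 2 of 13 cases, and colony-stimulating factor and adhesion genes rose in 5 and fell in 2 of 9. The balance of the lipid-handling genes depended on the 5 libraries nearer to eWAT: without them 6 rose and 4 fell. Without them also 10 inflammasome and cytokine genes, 7 transcription factors and 6 alternative activation genes rose, 8 lysosomal genes fell, dendritic-cell genes rose in 5 of 7 cases and neutrophil genes in 8 of 9, and 7 adipocyte and 6 endothelial genes fell.

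Over the day in iWAT, 12 genes were higher and 4 lower from ZT0 to ZT12 (25.6% and 23.8% of all genes), and 21 were higher and 4 lower from ZT14 to ZT22 (29.4% and 26.7%). In edgeR's test 0 genes differed between the windows (0.828% of all genes), with 6 at an unadjusted p under 0.05. Without the 5 libraries the counts were 5 higher and 3 lower in the first window (8.76% and 14.3% of all genes), and 18 higher and 3 lower in the second (23.4% and 24.1%), so in the first window the calls over all genes fell as well. Under TRF 13 of the 39 were rhythmic (21.7% of all genes), among them the 3 C1q genes, Adgre1, Cd68, Mrc1 and Ccr2. Under ALF 0 were (4.16%), with 10 at an unadjusted p under 0.05, and the difference in rhythm passed in edgeR's test for 0 (2.58%), with 1 at an unadjusted p under 0.05. Without the 5 libraries the same 13 were rhythmic under TRF (21.5%), Ccl6 alone under ALF (11%), and 0 differed (1.71%).

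In muscle the 28 genes that could be tested were higher or did not pass: 16 rose and 0 fell in edgeR's test, with 19 at an unadjusted p under 0.05, where 14% of the 12555 genes tested rose and 15.5% fell. The median log2 fold change was 0.51, against 0.00 over all genes. Itgax, Itgad, Mmp12, Atp6v0d2, Slc15a3, Ccl3, Ccl4, Fcgr4, Tnf, Il1b and Il1rn had too few counts there to be tested. Ccl6 rose most, from 3.17, 8.77 and 30.3 CPM to 5.18, 18.2 and 52.2 CPM (0.97 ± 0.21, adjusted p = 7.1e-04). Cd68 lay at 2.47, 4.096 and 11.6 CPM in ALF and 2.499, 6.75 and 16.2 CPM in TRF (0.65 ± 0.18), and Lyz2 at 38.5, 60.7 and 165 CPM in ALF and 51.0, 99.9 and 247 CPM in TRF (0.64 ± 0.16). The groups overlapped over most of their range. All 3 C1q genes rose, C1qa from a median of 19.4 CPM to 29.6 CPM (0.57 ± 0.12), and so did Gpnmb, from 5.48 CPM to 9.99 CPM (0.57 ± 0.14). The count depended on the replicates, as did that of all genes: without the first replicates 0 of the 39 rose (0% of all genes), and without the second 11 did (6.06%).

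The muscle genes past the test by window were those of the later one. From ZT14 to ZT22, 18 genes were higher (8.93% of all genes) with a median of 0.82, and from ZT0 to ZT12, 0 were (3.03%) with a median of 0.29; 0 were lower in either window (4.42% of all genes in the first and 8.79% in the second). The difference between windows, tested gene by gene in edgeR, passed for 0 genes (0.0717% of all genes), with 8 at an unadjusted p under 0.05, so the windows were not shown to differ. Cd68 was at 1.17 ± 0.26 in the second window and 0.28 in the first, and Ctss at 1.20 ± 0.30 and 0.33. Of the other lists in muscle, phagocytic signalling genes rose in 1 of 18 cases, alternative activation genes in 5 of 10 and mast-cell genes in 4 of 5, and no lymphocyte gene had enough counts to be tested.

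In heart 33 genes were tested, 17 rose and 0 fell in edgeR's test, with 21 at an unadjusted p under 0.05, where 15.2% of the 13425 genes tested rose and 15.5% fell. The changes were small, with a median of 0.22. Ccl6 again rose most, from 9.23, 14.7 and 43.8 CPM to 10.9, 22.5 and 49.5 CPM (0.61 ± 0.14). Lyz2 lay at 115, 150 and 220 CPM in ALF and 151, 197 and 295 CPM in TRF (0.34 ± 0.07), and C1qb at 40.2, 47.0 and 76.6 CPM in ALF and 43.6, 57.6 and 81.3 CPM in TRF (0.29 ± 0.05, adjusted p = 5.3e-05). Both were higher under TRF at 11 of 12 clock times. Cd163 rose by 0.28 ± 0.08, Fcgr3 by 0.33 ± 0.06 and Trem2 by 0.28 (adjusted p = 0.043). The identity genes contributed 7 of the rises, the Fc receptor genes 3, the C1q genes 3 and the lipid-associated genes 2. By window, 5 genes were higher from ZT0 to ZT12 (7.36% of all genes) and 11 from ZT14 to ZT22 (9.88%), 0 were lower (8.98% and 10.7%), and 0 differed between windows in edgeR's test (1.08% of all genes), with 2 at an unadjusted p under 0.05. Without the first replicates 5 genes rose (4.49% of all genes), and without the second 11 did (7.7%). Endothelial genes rose in 6 of 8 cases and erythroid genes in 4 of 7.

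Of the 4 tissues set beside eWAT, the adrenal gland was the one in which falls outnumbered rises. Of 35 genes tested 11 fell and 2 rose, where 15.3% of the 14467 genes tested fell and 16.6% rose, and the median was -0.20. Without the first replicates 8 fell (1.65% of all genes), without the second 3 (10.5%), and with ZT8 left out 17 (15.7%). Ccr2 lay at 8.53, 16.4 and 22.3 CPM in ALF and 2.95, 12.0 and 20.7 CPM in TRF (-0.52 ± 0.13), and Lgals3 at 30.3, 58.1 and 73.8 CPM in ALF and 24.1, 37.0 and 62.0 CPM in TRF (-0.52 ± 0.10). All 3 C1q genes fell, by 0.23 to 0.32 on the log2 scale, and Cd68 by 0.31. The rises went to Spp1, from 12.6, 20.1 and 52.0 CPM to 17.8, 33.0 and 82.6 CPM (0.83 ± 0.15), and Cd9, from 96.1, 128 and 174 CPM to 131, 156 and 212 CPM (0.26 ± 0.05), each higher under TRF at 12 of 12 clock times. From ZT14 to ZT22, 16 genes were lower (7.85% of all genes) and from ZT0 to ZT12, 2 were (8.38%), while 2 were higher in each window (8.59% and 9.07%). The difference between windows passed for 0 in edgeR's test (0.173% of all genes), with 9 at an unadjusted p under 0.05; Mmp12 was at -0.93 ± 0.24 in the second window and 0.20 in the first, and Lgals3 at -0.91 ± 0.14 and -0.24. Macrophage transcription factor genes fell in 7 of 10 cases, phagocytic signalling genes in 9 of 20 and T and B lymphocyte genes in 4 of 7, and endothelial genes in 6 of 8. Adipocyte genes, whose sum ran from 2378 to 8992 CPM in ALF and from 1692 to 11573 CPM in TRF, rose in 2 and fell in 3 of 14 cases.

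Rhythms were more often past the test in these 3 tissues under TRF, among all genes as among the 39. Under ALF 3 genes were rhythmic in muscle (13.9% of all genes), 6 in heart (33.4%) and 5 in adrenal gland (11.3%), and under TRF 9 (47%), 10 (51.2%) and 18 (39.2%). Cd163 was rhythmic in both groups in all 3 tissues, as it was in eWAT with all libraries in, and Ccl2 in both groups in muscle and heart. The difference in rhythm passed in edgeR's test for 0 genes in muscle (1.95% of all genes), heart (5.18%) and adrenal gland (1.15%), with 3, 2 and 4 at an unadjusted p under 0.05.

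Whether the feeding effect differed between eWAT and each of the other 4 tissues was tested as an interaction. Against iWAT the effect was more negative in eWAT for 37 of 39 genes (26.5% of all genes), with Cd163 and Itgad the exceptions. Against muscle it was for 26 of the 28 genes tested in both (23.8% of all genes), against heart for 32 of 33 (24.3%) and against adrenal gland for 31 of 35 (26.3%), and it was more positive for 0 of the 39 genes in each case, where 32.1%, 22.8%, 25.1% and 24.8% of all genes were. The differences that passed ran from -3.39 to -0.62 against iWAT, from -3.77 to -0.86 against muscle, from -3.31 to -0.43 against heart and from -3.36 to -0.35 against adrenal gland. Spp1 had the largest difference from iWAT, at -3.39 ± 0.50 (adjusted p = 6.0e-08), followed by Gpnmb at -3.26 ± 0.49, and Gpnmb the largest from muscle, at -3.77. Itgad, which fell in both fat depots, differed by 0.89 ± 0.79 (adjusted p = 0.33), and Cd163 by 0.58 ± 0.26 (adjusted p = 0.052). Without the eWAT library that stood apart, the effect was more negative in eWAT than in iWAT, muscle, heart and adrenal gland for 37, 33, 38 and 34 of the 39 genes (27.4%, 25.7%, 26.3% and 28.1% of all genes), where with it the counts were 37, 34, 37 and 34 when genes tested in eWAT alone are counted too. Cd163 then passed against iWAT, as the single gene with a more positive effect in eWAT (0.64 ± 0.26, adjusted p = 0.032). Without the 5 iWAT libraries nearer to eWAT, 37 genes were more negative and 0 more positive in eWAT (23.4% and 28.6% of all genes), with Spp1 at -3.25 ± 0.54 and Gpnmb at -3.27 ± 0.53. The genes past the test in opposite directions in the 2 depots numbered 22 with all libraries and 17 without these 5. The share of all genes with opposite directions was not computed.

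**Figure D4:**
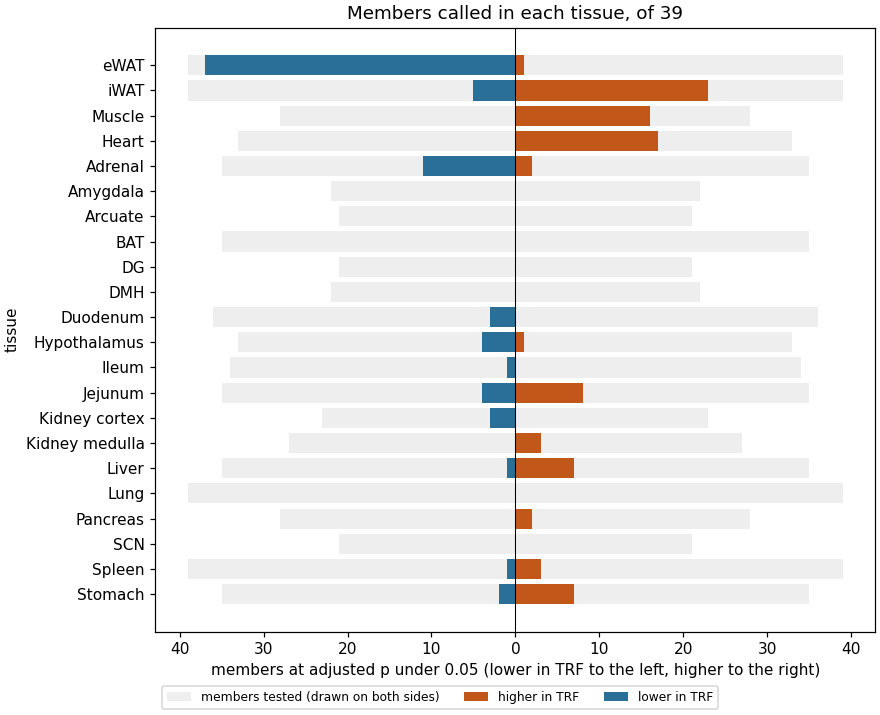
Number of the 39 genes that were higher (to the right) and lower (to the left) under TRF at an adjusted p of 0.05 in each of the 22 tissues, with the number tested drawn as a grey bar on both sides. eWAT has 37 lower and 1 higher, iWAT has 23 higher and 5 lower, and 7 tissues have no gene past the test.

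Summed over the tissues outside these 5, calls were few among the 39 genes as among all genes tested. Over the other 17 tissues there were 506 tests of the 39 genes, of which 31 were higher and 19 lower, in 10 tissues (6.38% and 6.27% of all tests in these tissues). In the amygdala, arcuate nucleus, brown fat, dentate gyrus, dorsomedial hypothalamus, lung and suprachiasmatic nucleus 0 genes passed edgeR's test, with 3, 3, 3, 3, 2, 8 and 0 at an unadjusted p under 0.05, and in lung, the tissue of these with the most calls, 1.43% of all genes rose and 0.935% fell (dentate gyrus 0.156% and 0.0298%, arcuate nucleus 0.00708% and 0%, the others 0%). Brown fat also had few rhythmic genes, 0.804% of all genes under ALF and 0.699% under TRF, where iWAT had 21.7% under TRF. Its lack of calls held for all genes and is no result about the 39, and its cause was not tested. Jejunum had 8 higher and 4 lower (22.7% and 22.3% of all genes), with the 3 C1q genes up by 0.42 to 0.51 and Spp1 down by 0.94. Stomach had 7 higher and 2 lower (14.4% and 10.4%), and liver 7 higher and 1 lower (9.81% and 10.9%), among them Spp1 at 0.76 and Cd163 at 0.52. Kidney medulla had 3 higher and 0 lower (1.92% and 1.01%), Lyz2 at 0.82, Itgam at 0.80 and Lgals3 at 0.57, and spleen 3 higher and 1 lower (5.79% and 4.49%), with Il1b at 0.71. In pancreas Ccl6 (0.87) and Msr1 (0.84) rose and 0 fell (2.97% and 4.31% of all genes). In kidney cortex 3 genes fell and 0 rose (6.29% and 4.84%), in duodenum 3 and 0 (20.9% and 19.9%) and in ileum 1 and 0 (5.12% and 3.93%), and in hypothalamus 1 rose and 4 fell (16.2% each way). Duodenum and ileum each hold 1 library nearer to another tissue, arcuate nucleus and dorsomedial hypothalamus 2 each and kidney medulla 4; without such libraries the counts over the 17 tissues were 36 higher and 18 lower (6.24% and 6.41% of all tests). Without the first replicates they were 17 and 7 (2.65% and 2.62%), and without the second 6 and 9 (2.51% and 2.53%).

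Followed gene by gene over the 22 tissues, Mmp12 and Ccr2 each fell in 5 tissues and Mmp12 rose in 0. Mmp12 fell in eWAT, iWAT, duodenum (-0.55), jejunum (-0.82) and kidney cortex (-0.59). Ccr2 fell in eWAT, adrenal gland, jejunum (-0.35), kidney cortex (-0.54) and stomach (-0.30). Cd163 rose in eWAT, heart and liver and fell in none. C1qa and C1qc rose in 5 tissues and fell in 4. The shares of all genes that rose or fell in each tissue are those given above. In how many tissues a gene among all genes rose or fell was not computed, so these counts have nothing to be set against.

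Under ALF eWAT was among the tissues richest in these RNAs. By ALF median it had rank 1 of 22 tissues for 18 of the 39 genes, rank 2 for 11 and rank 3 for 5, while spleen had rank 1 for 14 and lung for 4. Gpnmb was at 556 CPM in eWAT, 75.9 CPM in iWAT and 43.4 CPM in adrenal gland, the 3 highest, and Mmp12 at 369 CPM in eWAT, 58.4 CPM in adrenal gland and 44.4 CPM in iWAT. Trem2 was at 82.6 CPM in eWAT and 13.5 CPM in iWAT, followed by the amygdala at 11.4 CPM. At the other end, eWAT had rank 13 for Il1b and rank 9 for Spp1. Spp1 was highest in kidney medulla at 987 CPM, where the sum of the 39 genes had an ALF median of 1525 CPM. Trem2, Gpnmb, Msr1 and Cd163 had too few counts to be tested there, and which cells made Spp1 was not tested. Summed over the 39 genes, the ALF median was 11021 CPM in lung, 8014 CPM in eWAT and 7662 CPM in spleen. The TRF median of eWAT, 2834 CPM, was below that of iWAT at 4943 CPM, whereas under ALF eWAT was above iWAT, at 3808 CPM. In muscle the sum was 281 CPM in ALF and 416 CPM in TRF, in heart 568 and 705 CPM, and in adrenal gland 1774 and 1522 CPM, each a median of 24 libraries.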

How the data were processed

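PolyA RNA was sequenced with a stranded kit, per the labels' protocols, in 22 tissues of C57BL/6J mice (517 ALF and 518 TRF libraries, 1677 runs, 2.259 M to 500.6 M counts per library, median 11.26 M). The submitters' processing notes list CASAVA 1.8, FastQC 0.11.8, STAR 2.5.3a, HOMER 4.10 and the builds GRCm38 and mm10, with no roles. The authors deposited 1 table of estimated counts (expected counts) per gene in steps of 0.5. Of its values 29.62% were not whole and were rounded to whole numbers (ties to even), so the tests saw rounded values. The handling of reads that map to several genes is not given in the sources used here. Of 24537 gene rows, 4 with duplicated date-like names were left out.

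Each tissue was fitted in edgeR 4.0.16 (R 4.3.3) by quasi-likelihood, with clock time as a factor and feeding as the tested term, after filterByExpr on the feeding groups and TMM scaling. Benjamini-Hochberg adjustment ran over all genes tested in a tissue, with a threshold of 0.05. The same model gave the windows (ZT0 to ZT12 and ZT14 to ZT22), a 24 h cosine per group gave the rhythms, and a joint model of 2 tissues gave the differences from eWAT. CPM values use TMM-scaled totals, except the tissue markers in the opening, which use plain totals. Liver and ileum carry time labels of ZT24 to ZT46 beside titles of ZT0 to ZT22, and the titles were used. A library was called nearer to another tissue by its overall expression.

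The 39 genes and all lists were chosen with earlier results of these data known. All 39 could be named in eWAT, the 5 largest rises and 5 largest falls past the threshold in each other tissue together with genes whose difference from eWAT is described, and up to 4 genes with the smallest p from each further list. In simulated eWAT counts the test found 91 of 100 genes changed by 0.5 log2 units and 96 of 100 changed by 1. It called 8 of 13879 unchanged genes. These rates describe the simulated counts only. Whether they hold for the real libraries, where many of the 39 genes varied together, was not tested. Nor was it tested for genes near 1 CPM. Alternatives were DESeq2 1.42.0 and its size factors, no filter, GC offsets, the number of runs, a replicate block, left-out replicates, clock times and libraries, and a minimum amplitude. Figures and summaries used Python 3.11.15. Promoter windows came from RefSeq tables for GRCm38.p6.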

Additional observations from a re-analysis of the deposited data

Results flagged for a closer look

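The feeding effect differed between tissues by an interaction test in edgeR, which is why these results are singled out; each count is over all 39 genes in the joint model, including genes with too few counts in the other tissue to be tested there. Between eWAT and iWAT it differed for 37 genes, of which 22 passed the test in opposite directions in the 2 depots, as Fcgr1 and Il1b did. Without the 5 iWAT ALF libraries nearer to eWAT 37 genes differed and 17 had opposite directions, Fcgr1 and Il1b among them; Clec7a, Cd84, Itgam, Cd9 and Slc15a3 no longer did. Between eWAT and muscle it differed for 34 genes, 16 of them with opposite directions, such as Ccl6 and the 3 C1q genes. Between eWAT and heart it differed for 37 genes, 15 of them with opposite directions, such as Lyz2 and Cd68. Between eWAT and adrenal gland it differed for 34 genes, and 2 had opposite directions, Spp1 and Cd9. Every one of these differences was more negative in eWAT. Of all genes, 26.5%, 23.8%, 24.3% and 26.3% had a more negative effect in eWAT than in iWAT, muscle, heart and adrenal gland. A more positive effect was found for 32.1%, 22.8%, 25.1% and 24.8%. The share of all genes with opposite directions was not computed, so those counts have nothing to be set against.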

How the results depend on the processing

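The number of the 39 genes that fell in eWAT was 37, 31 without the first replicates, 36 with ZT2 or ZT8 left out, and 37 under every other alternative run. Leaving out 1 set of replicates, 1 clock time or the ZT10 library gave ranges of 0 to 1 genes higher in eWAT, 8 to 24 higher and 3 to 6 lower in iWAT, 0 to 20 higher in muscle, 5 to 22 higher and 0 to 1 lower in heart, 1 to 3 higher and 3 to 17 lower in adrenal gland, 6 to 17 higher and 7 to 9 lower over the other 17 tissues, and 15 to 34 with a more negative effect in eWAT than in adrenal gland. In each of the 5 tissues the lowest count of higher genes came without the first replicates. Calls over all genes dropped in those fits too. In eWAT 9.33% of all genes fell (29% with all libraries) and in adrenal gland 1.65% (15.3%). In iWAT 4.97% rose (35.1%), in muscle 0% (14%) and in heart 4.49% (15.2%). For the difference between eWAT and adrenal gland the share over all genes without a set of replicates is not given here. For the rhythms in eWAT the ranges without 1 set of replicates were 1 to 21 genes under ALF, 0 to 4 under TRF and 0 to 0 that differed. Without the ZT10 library, an alternative chosen after seeing the data, these counts were 3, 3 and 0. A model that held the number of sequencing runs gave 1 gene rhythmic under TRF, and no filter on low counts gave 1 gene lower in muscle. Fcer1g in adrenal gland, at -0.17, ran from -0.35 to 0.0042 and changed sign without the second replicates, with no call there. The cause was not tested for any of these changes.

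The correlation of the deviations of same-numbered libraries ran from -0.779 to 0.799 over 245 pairs, with 83 above 0.1. These values neither showed nor excluded that same-numbered libraries share a batch. The comparison was made within each tissue, so it cannot show whether tissues came from the same mouse. With a replicate block 5 genes were rhythmic under TRF in eWAT and 5 differed in rhythm; Csf1r and Mrc1 no longer passed in muscle, Adgre1 and Ccl6 passed in adrenal gland, and no other call of a mean level in the 5 tissues changed. A run-number term could not be fitted in adrenal gland. The depth limits Ccl3, Ccl4, Tnf and Il1b, which were near 1 CPM in eWAT, and the 11 genes with too few counts to be tested in muscle.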
